A study of Mus musculus with 3 samples.

Results

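The genes described here are those of the proteasome, its regulators and its assembly factors: every symbol of the mouse annotation that begins with Psm, a letter from a to g and a digit, and that has at least 1 protein-coding transcript. The rule found 50 genes among the 55536 genes annotated, out of 54 symbols with that pattern. The study sequenced chromatin-bound total RNA, depleted of ribosomal RNA, from bone-marrow-derived macrophages of C57BL/6J mice. All 3 libraries came from cells given 100 ng/ml Lipid A, the membrane anchor of lipopolysaccharide and the ligand of the receptor TLR4, for 60 minutes. The libraries form 1 group of 3 biological replicates, started from 1 µg of RNA in replicate 1, 250 ng in replicate 2 and 500 ng in replicate 3, and no unstimulated group was analysed here. A level therefore describes stimulated cells and carries no information on what Lipid A changed.

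The 26S proteasome degrades proteins tagged with ubiquitin. Its 20S core is a barrel of outer alpha rings and inner beta rings, and 3 of the beta subunits, encoded by Psmb5, Psmb6 and Psmb7, cut the substrate. The 19S cap recognises, unfolds and feeds the substrate into the barrel through a ring of ATPases (Psmc genes) and a set of other subunits (Psmd genes). In cells exposed to interferon, and constitutively in many immune cells, the cutting subunits are replaced by Psmb8, Psmb9 and Psmb10, which gives the immunoproteasome, while Psme1 and Psme2 form the PA28 cap. Both favour peptides that fit MHC class I molecules. Chromatin-bound RNA is rich in transcripts that are still being made or spliced, so its levels are not those of finished mRNA or of protein.

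Expected counts over all genes were 13318395, 15352661 and 15812581 in replicates 1, 2 and 3, and the 50 proteasome genes held 0.0988%, 0.0954% and 0.0883% of them. All 10 macrophage markers examined were at a level of 1 or more in every library in TPM, a unit scaled to transcript length and to the library total, with a summed level of 1695 to 2649 TPM, and none of 17 markers of T cells, B cells, neutrophils and fibroblasts was; 6 of those had no count in any library.

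Of the 50 genes, 42 reached 1 TPM in all 3 libraries, beside 35.7% of 22028 coding genes. They included 16 of the 17 genes of the 20S core and all 17 of the 19S ATPases and non-ATPase subunits listed here. The 8 that did not were Psmb5, the 4 chaperones of 20S assembly (Psmg1, Psmg2, Psmg3 and Psmg4), the testis-restricted alpha subunit Psma8, the thymus-restricted catalytic subunit Psmb11, and Psmc3ip, a recombination factor that shares the symbol pattern but is no proteasome subunit. Psmb11 had 0, 1 and 0 counts in replicates 1, 2 and 3. A count of 0 allows up to 3 counts, as a limit from counting error only. At a threshold of 5 TPM, 29 of the 50 genes remained above it, and the share of all coding genes at that threshold was not computed.

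**Figure D1:**
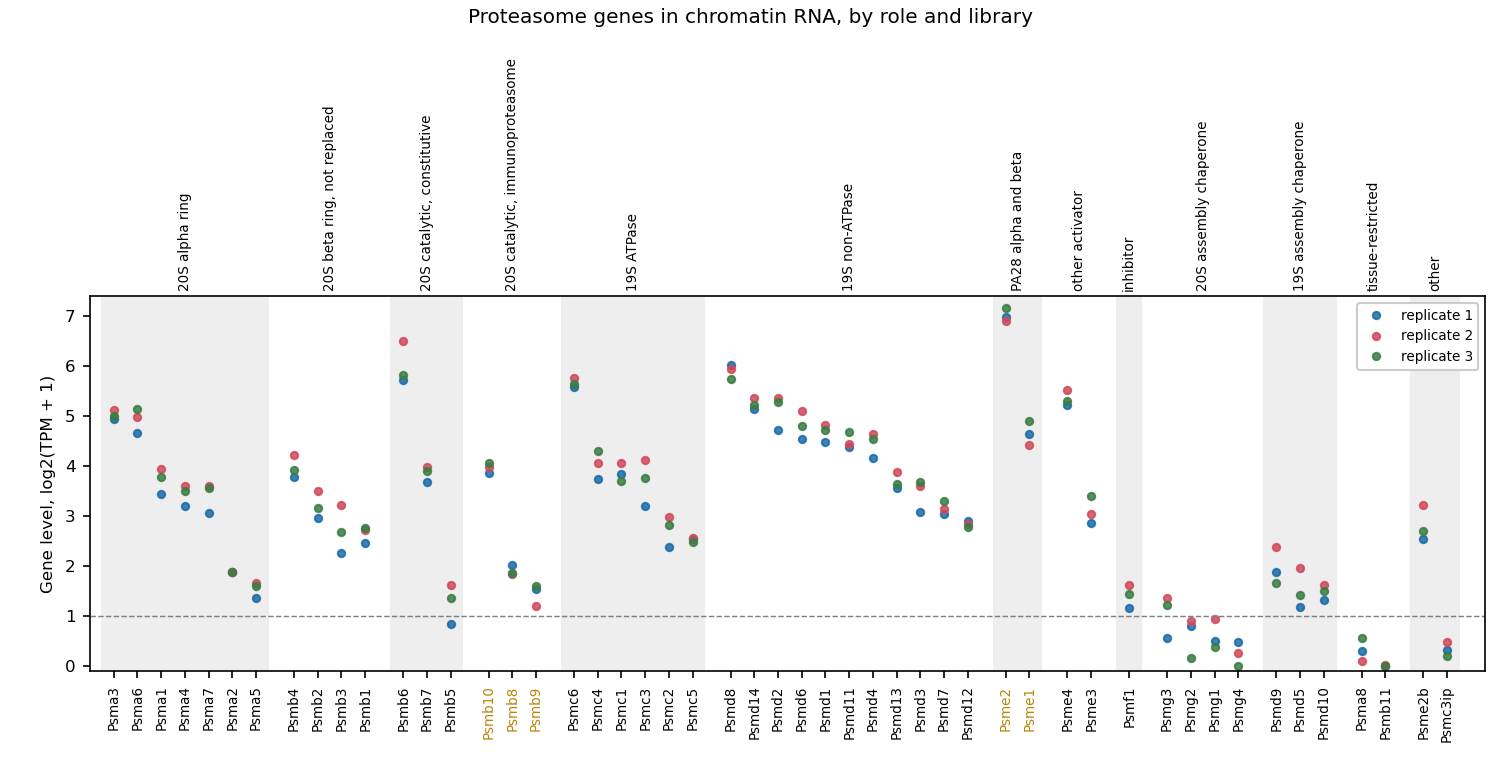
Gene level as log2(TPM + 1) for all 50 genes, ordered by role and, within a role, by mean; each point is 1 library and the dashed line marks 1 TPM. Psme2 lies highest in all 3 libraries, the 4 genes of 20S assembly chaperones lie near or below the line, and the gold names are the immunoproteasome and PA28 genes.

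The alpha ring, which gates entry to the barrel, had all 7 of its broadly expressed genes above 1 TPM, with means from 1.92 TPM for Psma5 to 31.6 for Psma3. Psma3 was at 29.6, 33.9 and 31.3 TPM in replicates 1, 2 and 3, and Psma6 at 24.4, 30.5 and 34.4 TPM. Psma1, Psma4 and Psma7 lay between 9.74 and 12.4 TPM on average. Psma2 was at 2.69, 2.67 and 2.67 TPM, but at 23.3 TPM on average in the second set of transcript estimates. The highest and lowest genes of a ring that holds each subunit in equal number thus differed 16.4-fold with all annotated transcripts summed. The range and its ends changed with the transcripts counted. In protein-coding transcripts only, the means ran from 1.84 TPM for Psma7 to 7.91 TPM for Psma6, with Psma3 at 4.21.

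Among the beta subunits that are not exchanged, the means ran from 5.28 TPM for Psmb1 to 14.8 TPM for Psmb4, a 2.81-fold range. In protein-coding transcripts only, they ran from 0.87 TPM for Psmb3 to 2.86 TPM for Psmb4, with Psmb1 at 2.33. The constitutive catalytic subunits spread much further. Psmb6, which carries the caspase-like activity, was at 52.2, 89.6 and 56.0 TPM in replicates 1, 2 and 3 (65.9 ± 20.6, SD, n = 3). Psmb7, the trypsin-like subunit, was at 11.8, 14.77 and 14.02 TPM (13.5 ± 1.53). Psmb5, the chymotrypsin-like subunit and main target of proteasome inhibitor drugs, was at 0.79, 2.09 and 1.55 TPM (1.48 ± 0.653), from 8, 23 and 16 counts. The 3 genes do not overlap in any library, and Psmb6 was 44.7-fold above Psmb5 on average with all annotated transcripts summed. In protein-coding transcripts only, the means were 14.2 TPM for Psmb6, 1.48 for Psmb5 and 1.22 for Psmb7.

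In the 19S cap, all 6 ATPase genes were above 1 TPM. Psmc6 was highest at 47.2, 53.4 and 48.8 TPM (49.8 ± 3.23), and Psmc5 lowest at 4.82, 4.87 and 4.55 TPM (4.75 ± 0.172), with Psmc4, Psmc1, Psmc3 and Psmc2 between them at 5.72 to 15.6 TPM. Libraries spread little for either end of the range, and the ends were separated 10.5-fold with all annotated transcripts summed. In protein-coding transcripts only, the ATPase means ran from 1.43 TPM for Psmc5 to 10.2 TPM for Psmc1, with Psmc6 at 7.56. The 11 non-ATPase genes ran from 6.15 TPM for Psmd12, a lid subunit, to 59.0 for Psmd8. In protein-coding transcripts only, they ran from 3.04 TPM for Psmd13 to 23.6 TPM for Psmd8, with Psmd12 at 6.15. Psmd8, also of the lid, was at 64.3, 60.3 and 52.5 TPM. Psmd14, which removes the ubiquitin chain from the substrate, was at 34.5, 40.0 and 36.4 TPM. Psmd2, a large scaffold of the base, was at 25.3, 40.4 and 38.2 TPM, lowest in replicate 1. That direction was not particular to Psmd2. In TPM, replicate 1 was lowest for 5965 of 7870 detected coding genes. It was also lowest for 31 of the 37 genes above 1 TPM outside the immunoproteasome and PA28 genes. In counts scaled to library size with TMM factors (CPM), Psmd2 was at 43.6, 45.4 and 50.5 in replicates 1, 2 and 3. Psmd1, the other large scaffold, averaged 24.6 TPM and the lid subunit Psmd11 21.7 TPM. Psmd4, which binds ubiquitin chains, was at 16.9, 23.9 and 22.2 TPM.

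The assembly factors were lower. Psmd9, Psmd5 and Psmd10, chaperones of the 19S base, averaged 3.01, 1.95 and 1.79 TPM, and the 4 Psmg genes 0.197 to 1.12 TPM. Psmf1, an inhibitor of the core, was at 1.22, 2.09 and 1.70 TPM. Of the alternative caps, Psme4, the single-chain activator PA200, was at 36.3, 44.8 and 38.5 TPM (39.9 ± 4.42), and Psme3, the nuclear PA28 gamma, at 6.28, 7.27 and 9.60 TPM (7.72 ± 1.70). Psme4 exceeded Psme3 in every library.

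The immunoproteasome and PA28 genes did not lie at one level. With all annotated transcripts summed, Psme2 was the highest of all 50, at 125, 120 and 142 TPM in replicates 1, 2 and 3. Its mean was 129 ± 11.9 TPM (SD, n = 3), above 98.7% of coding genes. In protein-coding transcripts only, Psme2 averaged 14.4 TPM, below Psmd8 (23.6), Psme4 (21.7) and Psmd1 (15.8). In CPM, which is not divided by length, Psme2 averaged 59.9, below Psme4 (148) and Psmd1 (69). Psme1 was at 24.0, 20.4 and 29.1 TPM (24.5 ± 4.37), and Psmb10 at 13.6, 14.8 and 15.7 TPM (14.7 ± 1.07). Psmb8 and Psmb9 were near the bottom: Psmb8 at 3.05, 2.57 and 2.65 TPM (2.76 ± 0.257), and Psmb9 at 1.90, 1.31 and 2.01 TPM (1.74 ± 0.376). The order Psme2, Psme1, Psmb10, Psmb8, Psmb9 was the same in each library, and no 2 neighbours in it overlapped across libraries. It changed with the estimates and the transcripts counted. In the second set of transcript estimates, Psmb10 averaged 27.8 TPM and Psme1 22.4. In protein-coding transcripts only, Psmb10 averaged 1.89 TPM and Psme1 1.72, and Psmb9 averaged 0.413 and Psmb8 0.103. Psme2 is at chr14:55587441-55591113 and Psme1 at chr14:55578123-55581529 (mm10), on opposite strands with 5911 bases between them. Psmb9 at chr17:34181987-34187764 and Psmb8 at chr17:34197721-34201454 are 9956 bases apart in the MHC class II region, and Psmb10 is alone at chr8:105935735-105938444.

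The median level of the 5 genes, as log2(TPM + 1), was 3.97 ± 0.10 (SD, n = 3), equal to 14.7 TPM, and that of the other 45 was 3.32 ± 0.24, equal to 8.97 TPM. The medians differed by 0.82, 0.48 and 0.66 in replicates 1, 2 and 3. The difference changed with the scaling and the genes compared. It was 0.39 by the second set of transcript estimates, 0.24 without chaperones, tissue-restricted genes and genes that encode no subunit, and -0.91 when only protein-coding transcripts were summed. With counts divided by the length of all annotated exons of a gene, an alternative chosen after seeing the data, it was 0.24. The median of the 5 rests on Psmb10, with 2 genes well above it and 2 well below.

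Each exchangeable subunit was compared with the one it replaces, within libraries, as a difference of log2(TPM + 1). The question is whether the inducible or the constitutive gene gave more chromatin RNA per unit of length. Psmb9 was below Psmb6 in 3 of 3 libraries, by 4.20, 5.29 and 4.24, a mean difference of -4.58 ± 0.62. Psmb8 was above Psmb5 in 3 of 3, by 1.18, 0.21 and 0.52, a mean of 0.63 ± 0.50, but the difference was -1.13 when only protein-coding transcripts were counted and 0.12 ± 0.81 when counts were divided by the length of all annotated exons. Psmb10 and Psmb7 lay within 0.18 of each other in every library (0.11 ± 0.10). The difference was 0.61 ± 0.38 by the second set of estimates and -1.25 with the division by the length of all annotated exons. Of the PA28 partners, which join in one heteromeric ring, Psme1 was below Psme2 in 3 of 3 libraries, with a mean difference of -2.36 ± 0.12.

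The test used for these 4 pairs cannot pass a threshold of 0.05. A two-sided exact permutation test that flips signs over 3 libraries gives no p under 0.25, which is the p of the pairs that kept one direction, and 0.333 after Benjamini-Hochberg adjustment over the 4 pairs. For Psmb10 and Psmb7 both the p and the adjusted p were 0.5.

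**Figure D2:**
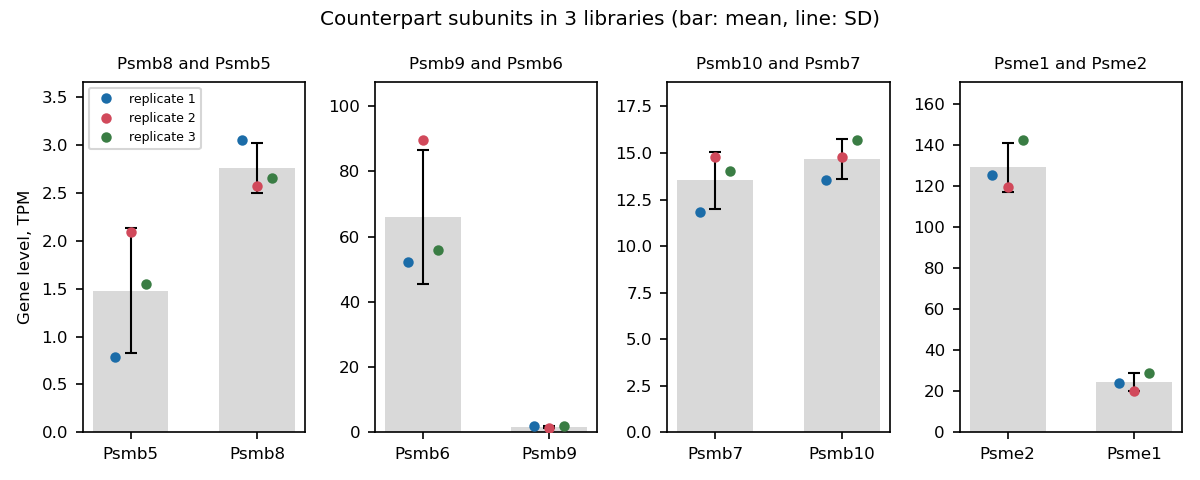
Gene level in TPM for 4 pairs of counterpart or partner subunits, each panel with its own axis from 0; points are libraries, bars the mean and lines the SD of 3 libraries. Psmb9 lies far below Psmb6 and Psme1 below Psme2 in every library, while the points of Psmb10 and Psmb7 overlap.

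The level of a gene in these tables sums all its annotated transcripts, and the annotation gives many proteasome genes transcripts that keep intron sequence. Of the summed TPM of the 50 genes, 54.1% ± 1.19 (SD, n = 3) was assigned to retained-intron transcripts and 30.1% ± 0.67 to protein-coding ones. Over all coding genes these shares were 39.3% ± 1.65 and 48.2% ± 1.49. Psmb8, Psmb9, Psmb10, Psme1 and Psme2 together had 84.1% ± 2.58 in retained-intron transcripts and 10.7% ± 1.06 in coding ones, a sum in which Psme2 weighs most. The other 45 genes had 45.9% ± 1.82 and 35.4% ± 1.15.

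Gene by gene, the summed TPM of both classes was compared with limma across the 5597 coding genes in which both kinds are annotated and their summed mean reaches 1 TPM. Of these, 35.5% had retained-intron transcripts higher and 31.9% coding transcripts higher at an adjusted p under 0.05, with a median log2 ratio of 0.08. Among the 50 proteasome genes, 16 had no annotated retained-intron transcript, 34 had both classes and 30 were tested. Retained-intron transcripts were higher in 20 of the 30, coding transcripts in 5, and 5 passed in neither direction, with a median log2 ratio of 1.16. The median was 2.39 for the 5 immunoproteasome and PA28 genes, all 5 higher in retained-intron transcripts, and 0.78 for the other 25, with 15 higher and 5 lower. With the mean TPM per annotated transcript of a class, which removes the number of transcripts in it, 16 of the 30 were higher in retained-intron transcripts and 5 in coding ones, beside 43.2% and 22.7% of all genes tested. Of the 5 immunoproteasome and PA28 genes, 4 were then higher in retained-intron transcripts and 1, Psmb10, in coding ones.

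Psme1 had 22.2, 16.9 and 24.0 TPM in retained-intron transcripts and 1.10, 1.31 and 2.75 in coding ones in replicates 1, 2 and 3, a log2 ratio of 3.33 (SE 0.20, limma adjusted p = 2.71e-06). Psme2 had 111, 108 and 125 TPM against 13.9, 11.8 and 17.7, a log2 ratio of 2.96 (SE 0.14, adjusted p = 1.08e-06). In both PA28 genes the classes were far apart in every library. Psmb8 had 3.04, 2.38 and 2.53 TPM in retained-intron and 0, 0.19 and 0.12 TPM in coding transcripts, a log2 ratio of 2.39 (SE 0.25, adjusted p = 5.04e-05). Psmb9 had 1.58, 1.04 and 1.36 TPM against 0.32, 0.27 and 0.65, a log2 ratio of 1.01 (SE 0.24, adjusted p = 0.00599). For Psmb10 the values were 7.62, 4.52 and 4.44 TPM against 1.62, 2.43 and 1.62, a log2 ratio of 1.31 (SE 0.25, adjusted p = 0.00179). Psmb10 has 5 annotated retained-intron transcripts and 1 coding transcript, and per transcript its ratio was -0.58, a call on the coding side (limma adjusted p = 0.0466). Its most abundant transcript belonged to neither class: a processed transcript, Psmb10-203, held 49.5% of the TPM of the gene.

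The constitutive catalytic genes that could be tested went the same way. Psmb7 had 10.6, 13.2 and 13.1 TPM in its 1 retained-intron transcript and 1.21, 1.52 and 0.92 in its 1 coding transcript (log2 ratio 2.91, SE 0.19, limma adjusted p = 3.85e-06). Psmb6 had 41.2, 73.0 and 41.1 TPM against 11.0, 16.6 and 14.8 (log2 ratio 1.80, SE 0.16, adjusted p = 2.36e-05). Psmb5 has no annotated retained-intron transcript, and all its TPM was coding. Within the 20S core, 10 of 11 genes tested had retained-intron transcripts higher and 0 had coding transcripts higher. The alpha gene Psma4 passed in neither direction. Over all genes tested the shares were 35.5% and 31.9%. Psma3 stood highest of the alpha ring at 2.52, followed by Psma7 at 1.31 and Psma1 at 0.85. Of the beta subunits that are not exchanged, Psmb3 was at 1.97 and Psmb4 at 1.93. The 20S count changed with the measure. With the mean TPM per annotated transcript, Psma1, Psma7, Psmb4 and Psmb6 did not pass and Psmb10 passed on the coding side. The shares of all genes tested were then 43.2% and 22.7%.

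Among the 30 genes tested, those with coding transcripts higher were all of the 19S cap, 5 of the 13 tested there, while 6 had retained-intron transcripts higher, beside 31.9% and 35.5% of all genes tested. The ATPase Psmc1 had 9.41, 10.9 and 10.2 TPM in its coding transcript and 2.90, 2.31 and 0.51 in its retained-intron transcript (log2 ratio -2.32, SE 0.32, limma adjusted p = 0.000275). The other 4 were the base scaffold Psmd1 at -0.92, the ATPase Psmc2 at -0.72, the lid subunit Psmd7 at -0.69 and the ubiquitin receptor Psmd4 at -0.57. Without replicate 3, 3 genes instead of 5 passed on the coding side, Psmc2 and Psmd4 being lost. On the other side, the lid subunit Psmd6 was at 2.42, the ATPases Psmc6 and Psmc4 at 1.84 and 1.47, Psmd13 at 1.41, Psmd2 at 0.78 and Psmd8 at 0.57. Outside the core and cap, Psmf1 passed at 1.53. The 19S chaperone Psmd5 passed at 0.62 with an adjusted p of 0.0482, and did not pass when any 1 library was left out. Without replicate 1, Psmd7 and Psmd8 did not pass and Psmd3 did, at 0.62, and without replicate 2 Psma4 passed at -0.73. With the second estimates the ratio was 0.28 for Psmc2 and -1.57 for Psmd5, and the 20S gene Psma4 passed on the coding side at -0.43. Per annotated transcript, Psma1, Psma7, Psmb4, Psmb6, Psmc4 and Psmd4 did not pass, Psmc6 was at -0.09, and Psmb10 passed on the coding side. Whether the 20S and 19S genes differ in this was not tested.

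**Figure D3:**
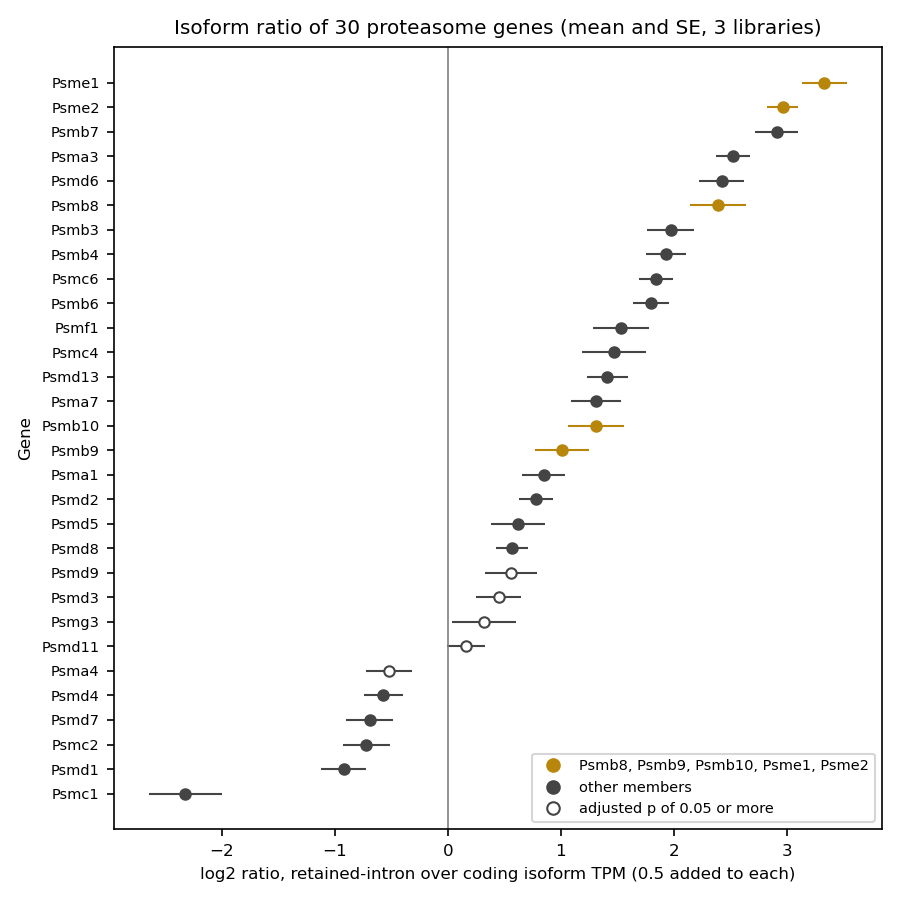
Log2 ratio of retained-intron to coding isoform TPM for the 30 genes tested, with the mean and SE over 3 libraries; values right of 0 have more TPM in retained-intron transcripts, and open points did not pass an adjusted p of 0.05. The 5 gold points, from Psme1 at 3.33 to Psmb9 at 1.01, all lie right of 0, and the 5 filled points on the left are 19S genes.

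A retained-intron transcript in the annotation need not keep a whole intron. In 11 of the 30 genes the most abundant one held at least 1 complete intron of the leading coding transcript, and in 19 only a stretch of an intron. A median of 59.8% of the bases of that retained-intron transcript lay in no exon of any coding transcript of the gene. These values were not computed over all genes tested, so they describe the 30 genes only. Among the immunoproteasome and PA28 genes, the leading retained-intron transcripts of Psme1, Psmb8, Psmb9 and Psmb10 hold whole introns, and that of Psme2 begins inside an intron. The exon and intron junctions that set these isoforms apart from the coding ones are given below in 30 bases each, read from the GENCODE M21 transcripts (mm10) 5′ to 3′ on the strand of the gene, with exon bases of the coding transcript in lower case and intron bases in capitals. They show where the sequence of each pair of transcripts parts, and other retained-intron transcripts of a gene can keep the same intron. The deposited tables hold no reads, so read support for a single junction was not measured.
Psme1-207, which keeps the 72 bases of intron 4 (chr14:55580042-55580113, + strand): aagaagcaacaggagGCAAGCTGGGAGACC
Psme1-208, coding, the same exon end joined to the next exon: aagaagcaacaggagaaggaagagaaggaa
Psmb8-205, which keeps the 190 bases of intron 2 (chr17:34199381-34199570, + strand): cagggagttacattaGTGAGTATGTGTGCT
Psmb8-201, coding: cagggagttacattagctccttaaggatga
Psmb9-201, which keeps the 1452 bases of intron 1 (chr17:34185798-34187249, - strand): gaagtccacaccgggGTAATGGGTCTCGGG
Psmb9-204, coding: gaagtccacaccgggacaaccatcatggca
Psmb10-206, which keeps the 112 bases of intron 3 (chr8:105937382-105937493, - strand): cgcccctaaaatctaGTCAGTATGCCCCGG
Psmb10-201, coding: cgcccctaaaatctactgctgtggggctgg
Psme2-207, which runs out of the end of intron 6 (chr14:55588513-55589300, - strand) into the next exon: CTCCTTTTAACATAGgtaatcacatggatc
Psme2-208, coding: gagaagtgcattctggtaatcacatggatc

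Psme1-207 averaged 8.94 TPM, 36.5% of its gene, and Psme2-207 averaged 30.7 TPM, 23.8% of its gene. Psmb8-205 was at 1.53, 1.28 and 0.81 TPM in replicates 1, 2 and 3. In the 42 genes above 1 TPM, the most abundant transcript was protein-coding in 18, a retained-intron transcript in 18, a processed transcript in 5 and one marked for nonsense-mediated decay in 1. The second set of estimates named the same transcript as most abundant in 23 of the 42. Shares over all detected coding genes were not computed for these counts, so they describe the 42 genes only.

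The libraries differed in a way that set the immunoproteasome and PA28 genes beside the rest. In TPM, 4 of the 5 were lowest in replicate 2, and 1 of the other 37 genes above 1 TPM was. Among the 4, Psmb8 and Psmb9 rest on few counts. Psmb8 had 73, 53 and 58 counts in replicates 1, 2 and 3, and Psmb9 had 44, 45 and 45, before any scaling. Of detected coding genes, 11.5% were lowest in replicate 2 and 61.5% highest there. The median of replicate 2 minus the mean of replicates 1 and 3, in log2(TPM + 1), was -0.16 for the 5 genes, 0.25 for the other 37 and 0.24 for detected coding genes. In counts scaled to library size (CPM) with TMM factors, 4 of the 5 were again lowest in replicate 2, beside 15 of the other 37. All 5 were highest in replicate 1, beside 18 of the other 37 and 33.4% of detected coding genes. The medians on that scale were -0.42 for the 5 genes, -0.05 for the other 37 and -0.02 for coding genes, of which 41.8% were lowest in replicate 2.

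Psme1 deviated most, at 28.4, 16.2 and 26.3 CPM in replicates 1, 2 and 3, followed by Psme2 at 75.3, 43.7 and 60.5. Psmb8 was at 5.59, 3.23 and 3.87 CPM. Psmb6 went the other way, at 40.9, 47.6 and 33.4, as did Psmb3 at 5.44, 8.05 and 6.20. The interferon and peptide-transport list did not follow as a whole: of its 9 genes, 3 were lowest in replicate 2 in TPM (Irf8, Nlrc5 and Tapbp) and 5 were highest there. Tapbp, the chaperone that bridges MHC class I to the peptide transporter, was at 90.0, 63.9 and 113 TPM, while Irf1 was at 320, 342 and 243 TPM. Replicate 2 was started from 250 ng of RNA, the least of the 3, and its part in these values was not tested. With 1 library at each starting amount, amount and replicate cannot be told apart.

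**Figure D4:**
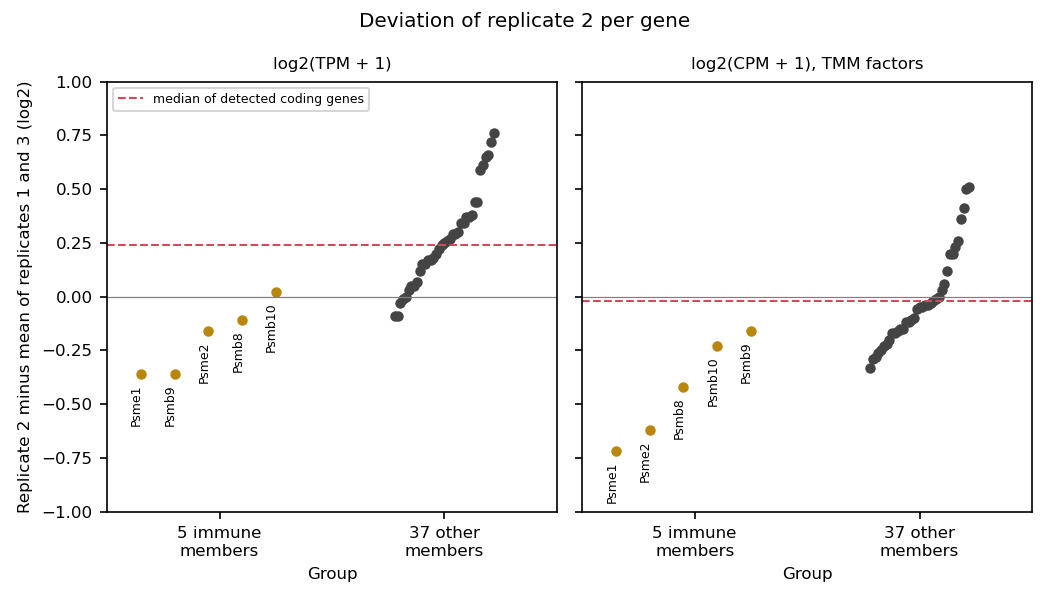
Log2 level in replicate 2 minus the mean of replicates 1 and 3, per gene, for the 5 immunoproteasome and PA28 genes (gold) and the 37 other genes above 1 TPM (grey), on the TPM scale (left) and the CPM scale with TMM factors (right). The gold points have a median of -0.16 on the left and -0.42 on the right, below the dashed median of detected coding genes at 0.24 and -0.02.

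The spread between replicates, as the biological coefficient of variation estimated by edgeR, had a median of 0.163 over the 43 proteasome genes with enough counts, beside 0.175 over 12505 genes. It ran from 0.136 for Psmd4 to 0.235 for Psmd9, whose reads were also the hardest to assign, with a posterior SD of up to 9.49 counts. For Psmb8, Psmb9, Psmb10, Psme1 and Psme2 the median was 0.196, with Psmb8 highest at 0.224. Without replicate 2 the median of the proteasome genes was 0.128. Over all genes compared, replicates 1 and 3 also lay closest. Their chi-square per degree of freedom was 15.3, beside 36.9 for each pair with replicate 2.

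Of 35 genes that work with the proteasome or control its genes, 34 were above 1 TPM, all but the ubiquitin shuttle Ubqln2. The interferon and antigen-processing genes were led by Irf1, a transcription factor that drives immunoproteasome genes, at 302 ± 52.3 TPM (SD, n = 3), and the MHC class I activator Nlrc5 was at 79.4 ± 7.09. The light chain of MHC class I B2m was at 32.8 ± 7.85 TPM, and the transporter genes Tap1 and Tap2 at 11.1 ± 1.39 and 2.74 ± 0.168. Nfe2l1, the factor that raises proteasome genes when the proteasome is inhibited, was at 46.2 ± 6.31 TPM, and its partners Mafg and Maff at 41.0 ± 7.14 and 26.0 ± 4.33. Among proteasome-bound proteins without a Psm symbol, Usp14, a deubiquitinase, was at 29.1 ± 7.23 TPM, the ubiquitin receptor Adrm1 at 21.3 ± 4.35 and the small lid subunit Sem1 at 17.7 ± 2.95. Pomp, which matures the 20S core, was at 9.74 ± 2.95 TPM, above all 4 Psmg chaperones, and the unfolding ATPase Vcp was at 47.7 ± 5.64.

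Of these 35 genes, 20 could be tested for isoforms, and 9 had retained-intron and 6 coding transcripts higher, beside 35.5% and 31.9% of all genes tested, with a median log2 ratio of 0.27. In the interferon and peptide-transport list, 3 of 8 tested were higher in retained-intron transcripts (Tap1 at 2.01, Tap2 at 1.79 and Irf8 at 0.48) and 4 in coding ones, among them Irf1 at -1.24, Tapbp at -1.11 and Nlrc5 at -0.62. In the list of subunits and assembly factors, 5 of 7 were higher in retained-intron transcripts, Usp14 most at 2.35, and 2 in coding ones, Ube3c at -1.10 and Pomp at -1.03.

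Promoters were searched for 5 motifs on both strands in the 250 bases before each RefSeq start (GRCm38.p6), for 42 of the 50 genes. The motifs were the interferon response core, GAAA and GAAA with 2 free bases between them, the GAS motif, TTC and GAA with 3 free bases between them, the NF-kB core, GGG and CC with 5 free bases between them, the antioxidant element, TGAC and GC with 3 free bases between them, which NFE2L1 and its relatives bind, and CCAAT. The interferon core was in 3 of the 42 genes, beside 3.46% of all 27025 genes in the table, and in 0 of the 5 immunoproteasome and PA28 genes. The GAS motif was in 2 of 42, beside 8.13% of all genes. The antioxidant element was in 5 of 42, beside 11.5%, the NF-kB core in 23 of 42, beside 48.7%, and CCAAT in 15 of 42, beside 37.5%. These counts describe letters in this window alone, and nothing is read from them. The windows that hold the matches to the GAS, interferon and antioxidant motifs in catalytic or 19S ATPase genes, and 1 beta gene, follow in 30 bases each, on the strand of the gene with the match in capitals and its position counted from the start.
Psmb8, GAS motif on both strands, -97 to -89 (chr17:34198088-34198117): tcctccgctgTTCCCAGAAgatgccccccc
Psmb3, interferon core on the reverse strand, -163 to -154 (chr11:97703261-97703290): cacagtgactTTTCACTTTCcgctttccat
Psmb5, antioxidant element, -47 to -39 (chr14:54618023-54618052): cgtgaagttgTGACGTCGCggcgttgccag
Psmb6, antioxidant element, -9 to -1 (chr11:70525327-70525356): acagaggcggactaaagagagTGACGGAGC
Psmc6, antioxidant element on the reverse strand, -227 to -219 (chr14:45329587-45329616): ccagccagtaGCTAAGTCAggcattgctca

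Of the 5 genes with the antioxidant element, the 3 shown averaged 65.9 TPM (Psmb6), 49.8 TPM (Psmc6) and 1.48 TPM (Psmb5). The others, Psmd12 and Psmd9, averaged 6.15 and 3.01 TPM. Whether the motif goes with the level was not tested. The Psmb8 match lies before the RefSeq start but inside the first exon of the longer GENCODE transcript Psmb8-201.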

How the data were processed

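Total RNA-seq of chromatin-fraction RNA was measured in 3 libraries of 1 group. The authors deposited, per the file headers, a gene and a transcript table with expected counts and TPM, and a second transcript table with estimated counts and TPM, the second set of estimates named in the text. The posterior SD of the count is a further column of the deposited gene table. Per the labels the assembly was mm10, and text files deposited beside the tables name GENCODE M21. The sources used here do not give the programs, their versions or the strand setting, which leaves antisense overlaps uncertain. Rows naming no gene held 1.40%, 0.352% and 0.354% of counts and were left out.

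Means and SDs are of gene TPM, and log2 levels use a pseudocount of 1. The isoform test used limma 3.58.1 (intercept only, 0.5 added to each class, Benjamini-Hochberg over 5597 genes, variance trend). Spread was estimated with edgeR 4.0.16 (TMM, filterByExpr) on the expected counts after rounding. R 4.3.3 and pandas 2.3.3 were used. Tested on simulated data for 5597 genes, the isoform test recovered 95% of 100 2-fold and 100% of 100 4-fold changes, with 2.99% of calls false. The simulation put independent noise on class sums, with most genes at equal class levels. It held no error in assigning reads to transcripts, so that rate does not cover such error. In simulated counts the spread of 0.2 came back as 0.198 over 12148 genes. No 2 libraries agreed within sampling noise (chi-square per degree of freedom 15.3 to 36.9). Any of the 50 genes and 35 partner genes could be named, with values per library for the immunoproteasome, PA28 and counterpart genes, the extremes of each subcomplex and genes past the isoform threshold. Of the partner genes, 1 is not reported here by name. Members, lists and tests were chosen with earlier results of these data known. Alternatives tried were the second estimates, other pseudocounts, scalings and filters, and each library left out.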

Additional observations from a re-analysis of the deposited data

How the results depend on the processing

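The median difference of 0.65 between the 5 immunoproteasome and PA28 genes and the other 45 reversed to -0.27 in CPM with TMM factors, which are not divided by length, and to -0.91 with coding transcripts only. It moved to 0.39 with the second estimates, 0.38 over genes at 1 TPM or more, 0.24 without chaperones, tissue-restricted genes and genes that encode no subunit, and 0.24 by union exon length, chosen after seeing the data. Without 1 library it was 0.57 to 0.74. Psmb8 minus Psmb5 reversed to -1.13 with coding transcripts only. Psmb10 minus Psmb7 reversed to -2.17 in CPM and to -1.25 by union exon length. The count of genes with coding isoforms higher moved from 5 to 8 with the second estimates and ran from 3 to 6 with 1 library left out. Single isoform ratios reversed with the second estimates for Psmc2 (0.28), Psmd11 (-0.99), Psmd5 (-1.57) and Psmd9 (-1.11), and per transcript for Psmb10 (-0.58), Psmc6 (-0.09) and Psmd3 (-0.07). The median replicate spread moved from 0.163 to 0.178 with no filter and ran from 0.128 to 0.201 with 1 library left out. The causes were not tested. The other 53 values of main results kept their direction and side of the threshold or, where no test was made, moved by less than the SD over libraries or 1.5 times for counts. They include Psmb8 minus Psmb5 at 0.12 ± 0.81 by union exon length and 29 genes detected at 5 TPM. Psmb10 minus Psmb7 at 0.61 ± 0.38 with the second estimates is also among them, as pairs were judged by direction only. Of single genes, 210 values kept direction and call, 15 kept direction and lost the call, 7 kept direction and gained one, Psmd5 losing its call in 5 settings. Depth limits the genes under 1 TPM, and 3 libraries limit every test.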

Other observations

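The second set of estimates gave higher levels than the first for 41 of the 42 genes above 1 TPM, by a median of 1.73-fold, beside 92.9% of detected coding genes with a median of 1.58-fold. Across the 50 genes, which share libraries and annotation, the order was much alike (Spearman's rho 0.95, across genes). Of the 42, the alpha subunit Psma2 differed most, at 2.68 TPM in one and 23.3 TPM in the other, an 8.72-fold difference. Psma2 spans 60997 bases and has only coding transcripts in the annotation. Psmb11, the thymus subunit, was at 0.00333 TPM in one and 2.34 TPM in the other, and lies 3410 bases from Psmb5 on chromosome 14. The length of a gene from first to last base was unrelated in rank to its TPM over the 50 genes (rho 0.04, across genes).

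Several of these genes share bases with another gene, and without a known strand setting reads of the shared stretch cannot be told apart. Psmb9 overlaps the start of Tap1, on the opposite strand at 11.1 TPM, and Psmb10 lies inside the antisense gene Gm16156, at 3.34 TPM. Psmb7 overlaps the kinase gene Nek6, which had up to 865 counts in a library, and Psma3 overlaps a noncoding gene at 14.5 TPM. Psme2b, an intronless relative of Psme2, was at 4.84, 8.29 and 5.48 TPM in replicates 1, 2 and 3 and lies inside Gm12185 on the same strand. Unlike the 2 PA28 genes it was highest in replicate 2.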
